A study of Mus musculus with 4 samples.

Results

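The genes described here are 10 that carry signals from ITAM-coupled receptors to the LAT adaptor complex in platelets and their parent cells. They were chosen by symbol as Fcer1g, Src, Fyn, Lyn, Syk, Lat, Lcp2, Btk, Vav1 and Plcg2, and each symbol matched a single Ensembl identifier among the 41214 in the count tables. All 10 passed the filter on low counts that left 15063 genes for testing. RNA was sequenced from megakaryocytes of C57Bl/6 mice aged 8 weeks, sorted from leg and arm bones by CD41, CD61 and cKit and by lack of lineage markers. The 4 groups of 1 library each were the PF4-Cre knockout, the PF4-Cre wild-type, the ROSA-Cre knockout and the ROSA-Cre wild-type of Gfi1b, a zinc finger repressor gene needed for megakaryocyte and red cell development. The wild-type libraries carry the same Cre label as the knockouts beside them. PF4-Cre takes its name from the platelet factor gene of megakaryocytes. Neither the form of the ROSA-Cre allele nor the number of mice behind a library is stated in the labels.

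An ITAM is a short tyrosine motif in the tail of a receptor or its partner chain. In platelets, collagen binding to GPVI leads Src-family kinases to phosphorylate the ITAM of the partner chain FcR gamma, the product of Fcer1g. The tandem SH2 domains of the kinase SYK dock there, SYK phosphorylates the adaptors LAT and SLP-76, and this complex gathers the kinase BTK, the exchange factor VAV1 and phospholipase C gamma 2, which starts calcium release and integrin activation. CLEC-2, the podoplanin receptor encoded by Clec1b, feeds into the same complex through a single-tyrosine variant of the motif.

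Gene counts ranged from 21835165 to 61652843 per library and were lower in both ROSA-Cre libraries. Gfi1b itself had 84744 and 55122 counts in the PF4-Cre and ROSA-Cre knockouts, against 10137 and 5864 counts in the wild-types. Which exons the allele removes is not stated, and a count over the whole gene therefore cannot check the labels. Knockout therefore means labelled knockout throughout, and every direction rests on those labels. All 13 megakaryocyte and platelet markers were detected in each library, with summed levels of 6557 to 7667 CPM (counts-per-million, scaled to TMM-normalised library sizes) in knockouts and 7015 to 9906 CPM in wild-types. Of 12 T cell markers, Cd4 had 14 to 107 counts per library and Cd28 had 11 to 58. The others, Cd3e and Trbc1 among them, had 0 to 12. Because these are bulk samples, fewer cells of a type and less RNA per cell cannot be told apart.

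Of the 10 genes, Fcer1g and Fyn were higher in knockouts and Lat was lower, while the other 7 did not pass the test. Genotype was tested in edgeR by quasi-likelihood F-tests, with Cre model as the other term and Benjamini-Hochberg adjustment over all 15063 genes at 0.05. The PF4-Cre and ROSA-Cre libraries of a genotype served as its replicates (n = 2). Over all tested genes 22.2% were called, 12.6% higher and 9.59% lower, so 3 of 10 is near the background. The median log2 fold change of the 10 genes was 0.03, against -0.02 for all tested genes. The CPM of the genotypes did not overlap for 5 of the 10 genes, namely Fcer1g, Fyn and Vav1 upward and Lat and Plcg2 downward. That is also near the 47.1% of all tested genes whose genotypes did not overlap, 23.4% upward and 23.7% downward. For 9 of the 10 genes the ratio of knockout over wild-type lay on the same side in both models, the exception being Lcp2. Within PF4-Cre the directions of Src and Lyn were not resolved beyond counting error. Their ratios there were 0.964 (counting interval 0.906 to 1.03) for Src and 1.033 (0.9995 to 1.067) for Lyn. The share of all tested genes with like directions in both models was not computed, so this count has no background beside it.

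**Figure D1:**
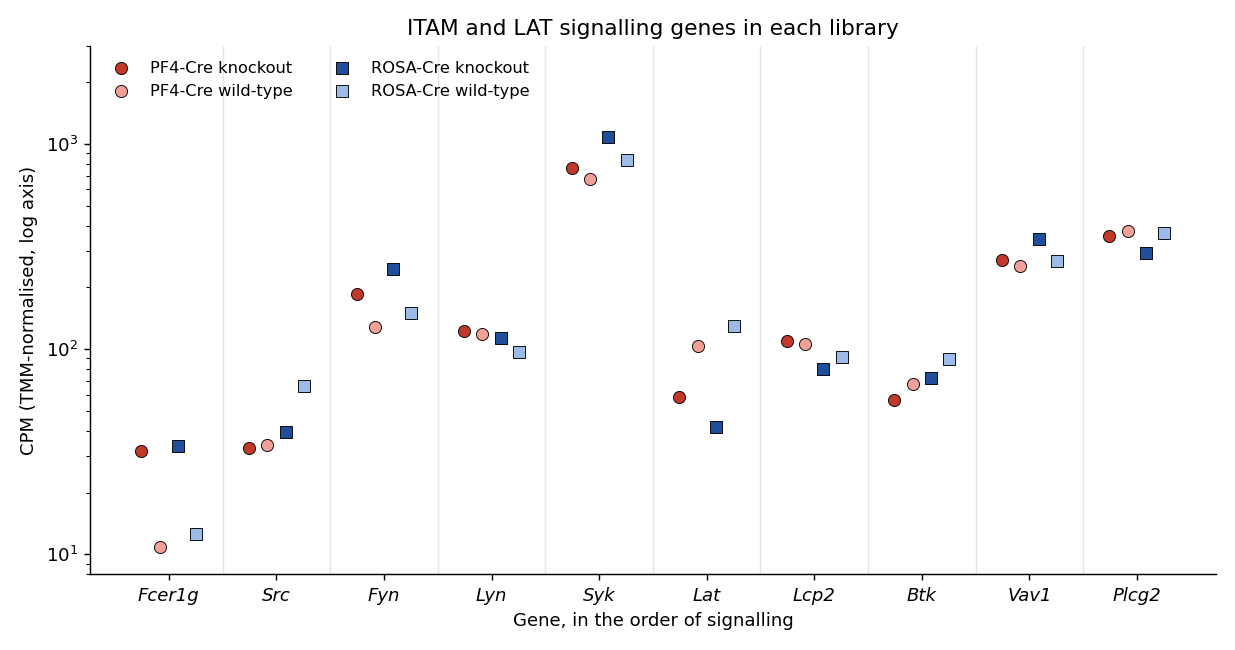
Level of each gene in each of the 4 libraries in CPM on a log axis, with knockouts left of wild-types within each model (circles PF4-Cre, squares ROSA-Cre). Fcer1g lies near 32 to 34 CPM in knockouts and 11 to 13 CPM in wild-types, and Lat lies lower in both knockouts than in both wild-types.

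Fcer1g (ENSMUSG00000058715, chromosome 1 from 171229572 to 171234365, minus strand, GRCm38 as for all positions here) encodes the ITAM-bearing FcR gamma chain. It had 1930 counts (31.9 CPM) in the PF4-Cre knockout and 756 (33.8 CPM) in the ROSA-Cre knockout, against 646 (10.8 CPM) in the PF4-Cre wild-type and 310 (12.6 CPM) in the ROSA-Cre wild-type. Both knockouts were well above both wild-types, and the models were alike at each genotype. The normalised ratio of knockout over wild-type was 2.95 within PF4-Cre, with a 95% Clopper-Pearson interval of 2.70 to 3.23, and 2.68 within ROSA-Cre, with an interval of 2.35 to 3.07. Over both models the log2 fold change was 1.495 (SE 0.17, edgeR adjusted p = 0.00247). Such counting intervals leave out all spread between mice and libraries, and reads that carry no molecular identifier are not independent molecules.

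FcR gamma serves several receptors, whose genes were called in both directions. Gp6, which encodes the collagen receptor GPVI, had 807 and 105 counts in the PF4-Cre and ROSA-Cre knockouts, against 94 and 72 in the wild-types (log2 fold change 2.10, SE 0.53, edgeR adjusted p = 0.0315). Its ratio was 8.37 in PF4-Cre and 1.60 in ROSA-Cre, and without the PF4-Cre knockout its log2 fold change was 1.10 (edgeR adjusted p = 0.370). Fcer1a, the IgE-binding chain of mast cells and basophils, had 869 and 101 counts in knockouts, against 255 and 74 in wild-types (log2 fold change 1.33, SE 0.34, edgeR adjusted p = 0.0321). Without the PF4-Cre knockout the Fcer1a value was 0.29 (edgeR adjusted p = 0.860), and with no filter on low counts its call was lost (edgeR adjusted p = 0.0589). Fcgr3, a low-affinity IgG receptor of myeloid cells, fell to 675 and 207 counts in knockouts, against 1185 and 582 in wild-types (log2 fold change -1.07, SE 0.21, edgeR adjusted p = 0.0158). Ms4a2, the beta chain of the IgE receptor, did not pass the test, with 569 and 153 counts in knockouts against 560 and 149 in wild-types.

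Markers of mast cells, basophils and monocytes, which also use FcR gamma, were read beside it. The 12 mast cell and basophil markers summed to 414 and 911 CPM in the PF4-Cre and ROSA-Cre knockouts, against 253 and 321 CPM in the wild-types, with 2 higher (Fcer1a and Gata2), 1 lower and 6 not past the test among 9 tested. In edgeR 5564 of all 15063 tested genes had an unadjusted p under 0.05, and so had 6 of these 9 markers. Their median log2 fold change was 0.47. Gata2, the most abundant of them and also a megakaryocyte factor, rose by 1.44 on the log2 scale (SE 0.21, edgeR adjusted p = 0.00576), with a value of 0.73 (edgeR adjusted p = 0.445) without the ROSA-Cre knockout. Without Gata2, a split chosen after its values were seen, the other 11 summed to 111 and 122 CPM in knockouts. Their wild-type sums were 101 and 108 CPM. Those sums include the 1 gene called lower, Hdc, at 12.1 and 7.73 CPM in knockouts against 32.6 and 19.4 CPM in wild-types. They also include Fcer1a, called higher, at 14.4 and 4.51 CPM in knockouts against 4.27 and 3.01 CPM in wild-types. Among the protease genes listed, Cpa3 had 2387 and 158 counts in knockouts against 1748 and 121 in wild-types. Prss34 had 959 and 1549 counts against 707 and 1260, and Mcpt8 had 442 and 482 against 516 and 456. Cpa3, Prss34 and Mcpt8 did not pass the test. Mcpt4, Tpsb2 and Cma1 had at most 12 counts in any library. The 14 monocyte and macrophage markers summed to 361 to 585 CPM in knockouts against 613 to 614 CPM in wild-types, with 5 lower and 0 higher, and the most abundant, Lyz2, did not pass. The part of these cells in the Fcer1g result was not tested.

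Of the 3 Src-family kinases that phosphorylate ITAMs, Fyn was called higher, and Lyn and Src did not pass. Fyn (ENSMUSG00000019843, chromosome 10 from 39368855 to 39565381, plus strand) had 11195 counts (185 CPM) in the PF4-Cre knockout and 5524 (247 CPM) in the ROSA-Cre knockout, against 7671 (128 CPM) and 3706 (151 CPM) in the wild-types. Both knockouts lay above both wild-types, with ratios of 1.44 for PF4-Cre (counting interval 1.40 to 1.49) and 1.64 for ROSA-Cre (counting interval 1.57 to 1.71) and a log2 fold change of 0.62 (SE 0.12, edgeR adjusted p = 0.0144). Lyn (ENSMUSG00000042228, chromosome 4 from 3678115 to 3813122, plus strand), which in platelets both starts and restrains GPVI signalling, had 122 and 114 CPM in knockouts against 118 and 96.6 CPM in wild-types. Its genotypes overlapped (log2 fold change 0.14, SE 0.12, edgeR adjusted p = 0.452). The antisense lincRNA Gm26857, which overlaps 248 exonic bases of Lyn, had 14 to 28 counts per library. The strand setting of the counting is unknown, and the part of that overlap in the Lyn count was not tested.

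Src (ENSMUSG00000027646, chromosome 2 from 157418444 to 157471862, plus strand), which sits on the tail of the fibrinogen receptor and starts its outside-in signalling, had the lowest level per length of these 3 kinases. It had 33.0 and 39.7 CPM in the PF4-Cre and ROSA-Cre knockouts, against 34.3 and 66.4 CPM in the wild-types. The ROSA-Cre wild-type stood above the other 3 libraries. The PF4-Cre ratio was 0.964 (counting interval 0.906 to 1.03) and the ROSA-Cre ratio 0.597 (0.55 to 0.648), and over both models the gene did not pass (log2 fold change -0.39, SE 0.19, edgeR adjusted p = 0.178).

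Syk (ENSMUSG00000021457, chromosome 13 from 52583173 to 52648792, plus strand), the kinase that reads the phosphorylated ITAM, had 764 and 1082 CPM in knockouts against 677 and 835 CPM in wild-types. The knockout was higher in each model by ratios of 1.13 and 1.30, but the PF4-Cre knockout lay below the ROSA-Cre wild-type. The gene did not pass the test (log2 fold change 0.27, SE 0.14, edgeR adjusted p = 0.214).

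Lat (ENSMUSG00000030742, chromosome 7 from 126363824 to 126369570, minus strand), the membrane scaffold of the pathway, had the largest fall of the 10 genes. It had 3552 counts (58.7 CPM) in the PF4-Cre knockout and 933 (41.7 CPM) in the ROSA-Cre knockout, against 6171 (103 CPM) in the PF4-Cre wild-type and 3178 (129 CPM) in the ROSA-Cre wild-type. Both knockouts were below both wild-types. The wild-type over knockout ratio of PF4-Cre was 1.76, with a counting interval of 1.69 to 1.83, and that of ROSA-Cre was 3.10, with an interval of 2.88 to 3.34, so the fall was the larger in ROSA-Cre beyond counting error. With 1 library per group the difference between models could not be tested against replicates. Over both models the log2 fold change was -1.21 (SE 0.20, edgeR adjusted p = 0.00783).

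Lcp2 (ENSMUSG00000002699, chromosome 11 from 34046920 to 34092295, plus strand) encodes SLP-76, the cytosolic adaptor that binds the LAT complex. It had 110 and 79.6 CPM in knockouts against 106 and 92.0 CPM in wild-types, with a PF4-Cre ratio of 1.04 and a ROSA-Cre ratio of 0.866. The genotypes overlapped and the gene did not pass (log2 fold change -0.07, SE 0.13, edgeR adjusted p = 0.715). Lat was thus called lower while its partner adaptor was not called.

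The enzymes that gather on the complex did not pass the test. Btk (ENSMUSG00000031264, chromosome X from 134542336 to 134583570, minus strand), a Tec-family kinase that phosphorylates phospholipase C gamma 2, had 56.3 and 72.5 CPM in knockouts against 67.9 and 90.0 CPM in wild-types. It was lower in both models by like amounts, ratios 0.829 and 0.806, but the ROSA-Cre knockout lay above the PF4-Cre wild-type (log2 fold change -0.29, SE 0.12, edgeR adjusted p = 0.134). Vav1 (ENSMUSG00000034116, chromosome 17 from 57279100 to 57328031, plus strand), the exchange factor for Rac, had 271 and 346 CPM in knockouts against 255 and 268 CPM in wild-types (log2 fold change 0.23, SE 0.13, edgeR adjusted p = 0.245). Its genotypes did not overlap, by a margin of a few CPM.

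Plcg2 (ENSMUSG00000034330, chromosome 8 from 117498291 to 117635142, plus strand), the lipase that makes the second messengers for calcium release, had 356 and 295 CPM in knockouts against 377 and 370 CPM in wild-types. Both knockouts lay below both wild-types, with a PF4-Cre ratio of 0.945 and a ROSA-Cre ratio of 0.797. It did not pass the test (log2 fold change -0.20, SE 0.13, edgeR adjusted p = 0.294).

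**Figure D2:**
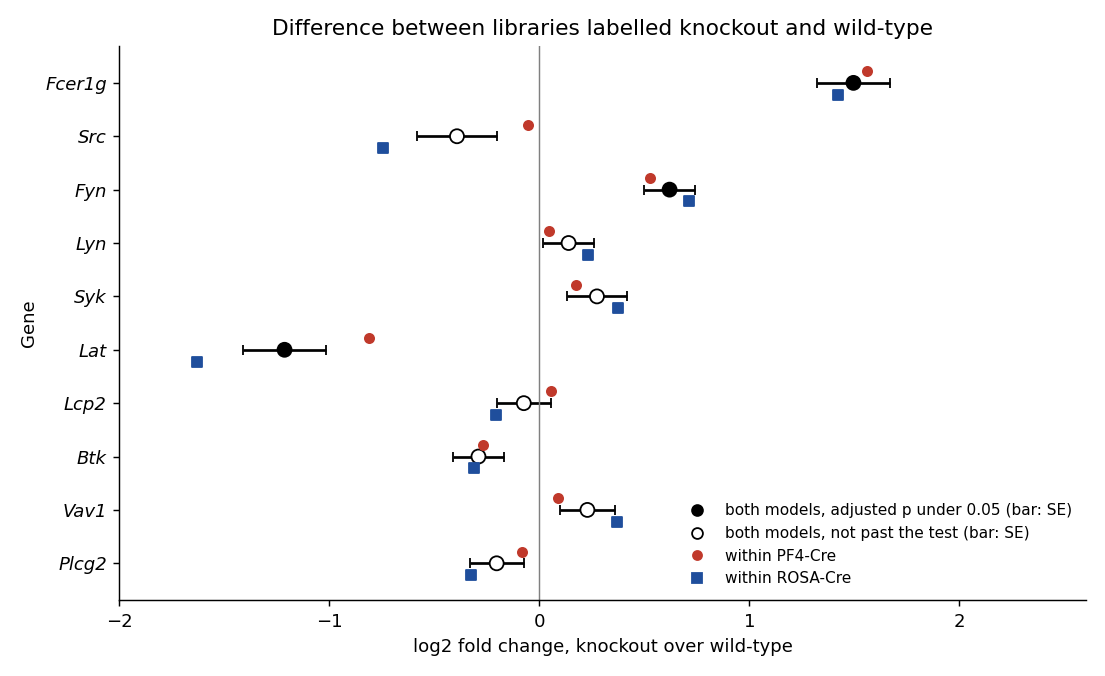
Difference of knockout over wild-type on the log2 scale, with the estimate over both models as a circle with its SE (filled where the edgeR adjusted p is under 0.05) and the ratio within each model as a small point. Fcer1g (1.495) and Fyn (0.62) lie right of 0 and Lat (-1.21) left of it with filled circles, and the points of the models lie farthest apart for Lat and Src.

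Within PF4-Cre 1 of the 10 genes differed at least 2-fold, Fcer1g upward, beside 12.6% of tested genes (9.8% higher and 2.78% lower). Within ROSA-Cre 2 did, Fcer1g upward and Lat downward, beside 21.6% (13.8% higher and 7.86% lower). The calls over both models depend on the design. With genotype as the only term none of the 3 genes passed, with edgeR adjusted p = 0.0663 for Fcer1g, 0.106 for Lat and 0.275 for Fyn at nearly the same log2 fold changes. Leaving out 1 library, which also drops the Cre model term, kept Lat without the PF4-Cre knockout or the PF4-Cre wild-type and lost it without the ROSA-Cre knockout (edgeR adjusted p = 0.229) or the ROSA-Cre wild-type (0.168). It lost Fcer1g without the PF4-Cre wild-type (0.13) or the ROSA-Cre knockout (0.0548), and Fyn without any of the 4 (0.224 to 0.796), with its log2 fold change at 0.41 without the ROSA-Cre knockout.

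The next question was how the genes rank and which family members stand beside them. For levels between genes, counts were divided by the summed length of annotated exons and scaled to transcripts-per-million (TPM). Syk (204 to 309 TPM over the 4 libraries), Plcg2 (183 to 252) and Vav1 (189 to 251) held the first 3 places in each library and changed places among themselves, so their order was not set beyond the spread. Fyn followed at 83.0 to 151 TPM. Lyn (61.6 to 91.3), Btk (54.4 to 74.3) and Lcp2 (47.7 to 74.9) lay close together below it with overlapping ranges. In the PF4-Cre wild-type Lyn (81.9 TPM) and Fyn (83.0 TPM) were about equal. Lat held place 4 in both wild-types (105 and 121 TPM) and places 8 and 9 in the PF4-Cre and ROSA-Cre knockouts (64.6 and 40.3 TPM), while Fcer1g held place 5 in both knockouts (111 and 103 TPM) and places 9 and 10 in the wild-types (34.9 and 37.5 TPM). Src was last or next to last throughout, at 22.1 to 39.5 TPM.

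Lat has a close relative in Lat2, also called NTAL or LAB, a scaffold of mast cells, B cells and monocytes that lacks the direct docking site of LAT for phospholipase C gamma. Lat2 rose as Lat fell. It had 3454 and 2101 counts in the PF4-Cre and ROSA-Cre knockouts, against 2028 and 1199 in the wild-types, with ratios of 1.68 and 1.93 and a log2 fold change of 0.85 (SE 0.13, edgeR adjusted p = 0.00709). Per length, Lat made up 49.3% and 29.6% of the summed TPM of both scaffolds in knockouts, against 74.2% and 71.5% in wild-types. The sum itself was 131 and 136 TPM in knockouts against 142 and 170 TPM in wild-types. The Lat2 call was lost when any 1 library was left out together with the Cre model term, and its log2 fold change was 0.47 without the ROSA-Cre knockout.

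Fcer1g shared its role with Tyrobp, which encodes the ITAM adaptor chain DAP12 of myeloid and NK cells. Tyrobp had 983 and 243 counts in knockouts against 1076 and 551 in wild-types and did not pass the test (log2 fold change -0.56, SE 0.25, edgeR adjusted p = 0.151). By TPM, Fcer1g made up 59.9% and 70.2% of the summed ITAM adaptor chains in knockouts, against 31.4% and 30.0% in wild-types. Cd247, the ITAM chain of T and NK cells, stayed under 0.3% of that sum in each library.

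Among 8 Src-family kinases, Fyn, Lyn and Src made up most of the summed TPM in every library. Fyn held 49.2% and 57.7% in knockouts, against 40.8% and 42.7% in wild-types. Lyn held 34.8% and 28.5% in knockouts, against 40.3% and 29.3% in wild-types. The summed level was 262 TPM in both knockouts, against 203 and 210 TPM in wild-types.

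**Figure D3:**
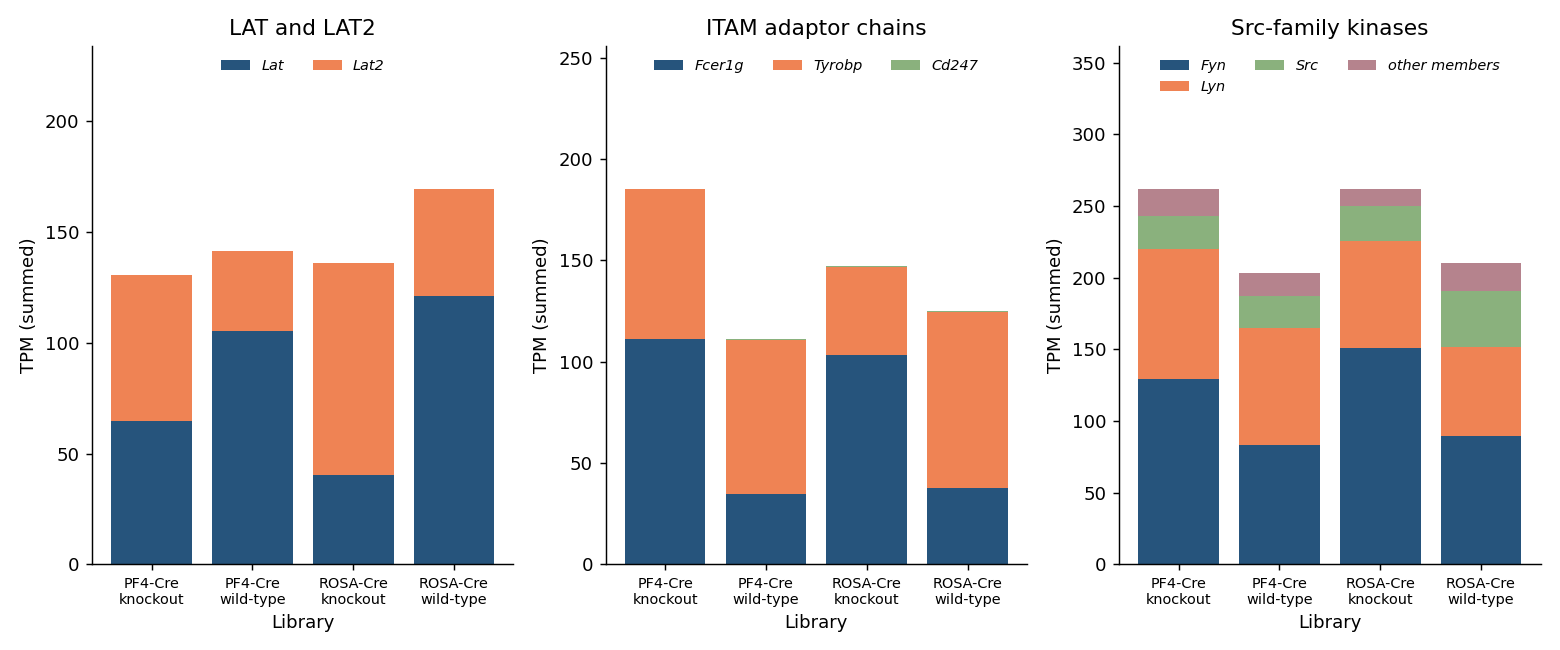
Summed TPM of the LAT scaffolds, the ITAM adaptor chains and 8 Src-family kinases in each library, stacked by gene with Src-family kinases other than Fyn, Lyn and Src drawn together, with each knockout left of its wild-type. Lat shrinks and Lat2 grows in both knockouts, and Fcer1g grows beside Tyrobp. Fyn takes the largest share of the Src family except in the PF4-Cre wild-type, where Fyn (40.8%) and Lyn (40.3%) are about equal.

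The other families were dominated by the gene described here, or shared about evenly. Syk made up nearly all of the Syk and Zap70 sum, with 2 to 5 counts of Zap70 per library. Lcp2 made up 98.4% and 99.8% of the SLP-76 family in knockouts, against 95.8% in both wild-types. Plcg2 took 89.9% and 81.8% of the gamma phospholipases in knockouts, against 89.9% and 87.5% in wild-types, and Vav1 took 73.0% and 83.1% of the Vav proteins, against 74.0% and 77.8%. Btk and Tec, its relative in platelets, were about equal, with Btk at 48.2% and 56.8% of the Tec family in knockouts, against 48.4% and 57.6% in wild-types. Of the 6 tested genes in the list of relatives 0 passed the edgeR test, 0 had an unadjusted p under 0.05, and 0 passed DESeq2's Wald test. Over all 15063 tested genes, 22.2% passed the edgeR test and 5564 had an unadjusted p under 0.05 in it.

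The models themselves were compared next, ROSA-Cre over PF4-Cre at like genotype, by the other term of the same fit. None of the 10 genes passed edgeR's quasi-likelihood test, while 18.7% of all tested genes were called, 8.33% higher and 10.4% lower in ROSA-Cre. An unadjusted p under 0.05 in that test was found for 5 of the 10 genes and for 5407 of all 15063. DESeq2's Wald test called 2 of the 10, Src and Syk, and 2646 of the 21765 genes it fitted. Src had the largest difference, 39.7 and 66.4 CPM in the ROSA-Cre knockout and wild-type against 33.0 and 34.3 CPM in the PF4-Cre pair (log2 difference 0.61, SE 0.19, edgeR adjusted p = 0.0617). The others lay between -0.33 for Lcp2 and 0.40 for Syk on that scale. Depth differs between the models by up to 2.82-fold, and its part in these differences was not tested.

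The rest of the pathway was read from 8 lists of genes around the complex, against the 22.2% of all tested genes that were called (12.6% higher and 9.59% lower). Of 15 tested receptors that signal through an ITAM or its variant, 3 rose and 1 fell, 26.7% and so near that background (median log2 fold change -0.16, against -0.02 for all tested genes). Besides Gp6, Fcer1a and Fcgr3 above, Clec1b had 16527 and 6058 counts in knockouts against 2714 and 1011 in wild-types (log2 fold change 2.65, SE 0.13, edgeR adjusted p = 0.000107). The B cell receptor chain Cd79b had 1224 and 441 counts in knockouts against 1575 and 658 in wild-types and did not pass. The 12 B cell markers, Cd79b the most abundant, summed to 20.9 to 24.7 CPM in knockouts and 29.5 to 33.9 CPM in wild-types. Of 10 tested, 0 were called by edgeR's quasi-likelihood test and 0 by DESeq2's Wald test. In the edgeR test 3 had an unadjusted p under 0.05, beside 5564 of all 15063 tested genes.

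Of 12 tested genes in the list of other Src-family kinases and their control, 4 rose and 2 fell, which is 50% beside 22.2% of all tested genes (median -0.26). Csk, the kinase that switches the family off by phosphorylating its tail, had 12928 and 5235 counts in knockouts against 17320 and 9243 in wild-types (log2 fold change -0.56, SE 0.13, edgeR adjusted p = 0.0228). Matk, the Csk-homologous kinase, had 3017 and 861 counts against 6943 and 3517 (-1.55, SE 0.18, edgeR adjusted p = 0.00239). Both fell in each model. Pag1, the membrane anchor that recruits Csk, rose by 0.58 (SE 0.13), and Ptprc, the phosphatase CD45 that removes the inhibitory tail phosphate, rose by 0.53 (SE 0.12). Frk, a distant member of the family, had 139 and 14 counts in knockouts against 16 and 7 in wild-types (2.64, SE 0.53). The Frk call was lost by DESeq2's Wald test (adjusted p = 0.128), and without the PF4-Cre knockout its value was 1.18 (edgeR adjusted p = 0.649). Csk was at -0.35 without the ROSA-Cre wild-type, and Ptprc lay between 0.23 without the PF4-Cre knockout and 0.89 without the PF4-Cre wild-type, none of these past the test. In platelets the tail phosphate is also removed by CD148, whose gene Ptprj did not pass, with 6812 and 2294 counts in knockouts against 7915 and 3333 in wild-types.

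Among 24 tested adaptors around LAT and SLP-76, 4 rose and 2 fell, 25% and so near the 22.2% of all tested genes (median -0.01). Grap2, which encodes GADS, the bridge between LAT and SLP-76, had 9776 and 3981 counts in knockouts against 2401 and 1635 in wild-types. Its ratios were 4.02 in PF4-Cre and 2.68 in ROSA-Cre (log2 fold change 1.72, SE 0.17, edgeR adjusted p = 0.00124). Of the 3 parts of that bridge, the gene of GADS was thus higher, that of LAT lower, and that of SLP-76 not past the test. Gab1, a docking adaptor of receptor signalling, rose by 1.20 (SE 0.18), and Nck2, which links phosphotyrosine to actin, rose by 0.59 (SE 0.16). Clnk, an SLP-76 relative of mast cells and cytokine-stimulated blood cells, fell, with 33 counts in the PF4-Cre knockout and 0 in the ROSA-Cre knockout against 94 and 35 in the wild-types (edgeR adjusted p = 0.0216). Fyb, Skap2 and Was, partners of SLP-76 on the way to integrins and actin, did not pass.

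Of 23 tested genes in the list of ITIM receptors, phosphatases and other brakes, 2 rose and 6 fell, 34.8% beside 22.2% of all tested genes (median 0.00). Whether each listed gene acts as a brake in these cells was not tested. Inppl1, the lipid phosphatase SHIP2, had 2308 and 1327 counts in knockouts against 731 and 484 in wild-types (log2 fold change 1.62, SE 0.15, edgeR adjusted p = 0.00118). Inpp5d, the blood cell form SHIP1, did not pass at 14086 and 5172 counts against 12606 and 5213. Ubash3a and Ubash3b, whose products STS-2 and STS-1 are suppressors of SYK-family signalling, fell by 1.06 (SE 0.18) and by 0.42 (SE 0.12). Dok2, an adaptor that recruits negative regulators, had 3228 and 278 counts in knockouts against 6718 and 3634 in wild-types (log2 fold change -2.24, SE 0.51, edgeR adjusted p = 0.0238). The Dok2 value was -3.39 without the PF4-Cre knockout and -1.29 (edgeR adjusted p = 0.0705) without the ROSA-Cre knockout, and DESeq2's Wald test did not call it. Treml1, an ITIM-bearing receptor of platelet granules, rose by 0.56 (SE 0.15). Treml1 was at 0.23 without the PF4-Cre wild-type and 0.91 without the ROSA-Cre wild-type, and Ubash3b was at -0.27 without the PF4-Cre knockout and -0.21 without the ROSA-Cre wild-type, none of these past the test. The ITIM receptors Pecam1 and Mpig6b and the phosphatases Ptpn6 and Ptpn11 did not pass. DESeq2's Wald test called 5 of the 23, with 3 higher and 2 lower, so the balance toward falls in this list rests on the test used.

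Downstream, 1 of 10 PI3-kinase subunits rose and 1 fell, 20% and so near the background. Pik3ca rose by 0.55 (SE 0.14), and Pik3cg, the catalytic subunit driven by G proteins, fell by 0.70 (SE 0.16). Of 18 tested genes of calcium release, store-operated entry and protein kinase C, 3 rose and 0 fell, 16.7% and so no more than the 22.2% of all tested genes (median 0.16). These were the IP3 receptors Itpr2 (1.19, SE 0.16) and Itpr3 (0.97, SE 0.27) and the kinase Prkca (0.60, SE 0.16). Among these, Pik3ca lay between 0.16 without the ROSA-Cre wild-type and 1.01 without the PF4-Cre wild-type, Pik3cg was at -0.46 without the ROSA-Cre knockout, and Prkca was at 0.33 without the PF4-Cre wild-type, none past the test. The store sensor Stim1 and the channel Orai1 did not pass. Of 14 genes of integrin activation 1 rose (7.14%), Itgb3, with 97467 and 31656 counts in knockouts against 38780 and 20032 in wild-types (1.06, SE 0.18, edgeR adjusted p = 0.00912). It encodes CD61 of the sort gate. Rasgrp2, Tln1 and Fermt3, which activate the fibrinogen receptor, did not pass. All 25 pathway genes named here for passing the test kept their direction when the normalisation or the test was changed, but not all kept their call. With no filter on low counts 12 of the 25 passed. DESeq2's Wald test lost Frk and Dok2, the GC and length correction lost Ptprc, Pik3ca and Prkca, and the older quasi-likelihood method lost Gp6 and Clnk. With 1 library left out, 4 to 9 of the 25 passed. Of the 25, 1 (Clec1b) passed with genotype as the only term. Without the ROSA-Cre knockout the Itpr3 value was -0.03, the other 24 keeping their direction, and without the PF4-Cre knockout it was 1.87.

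**Figure D4:**
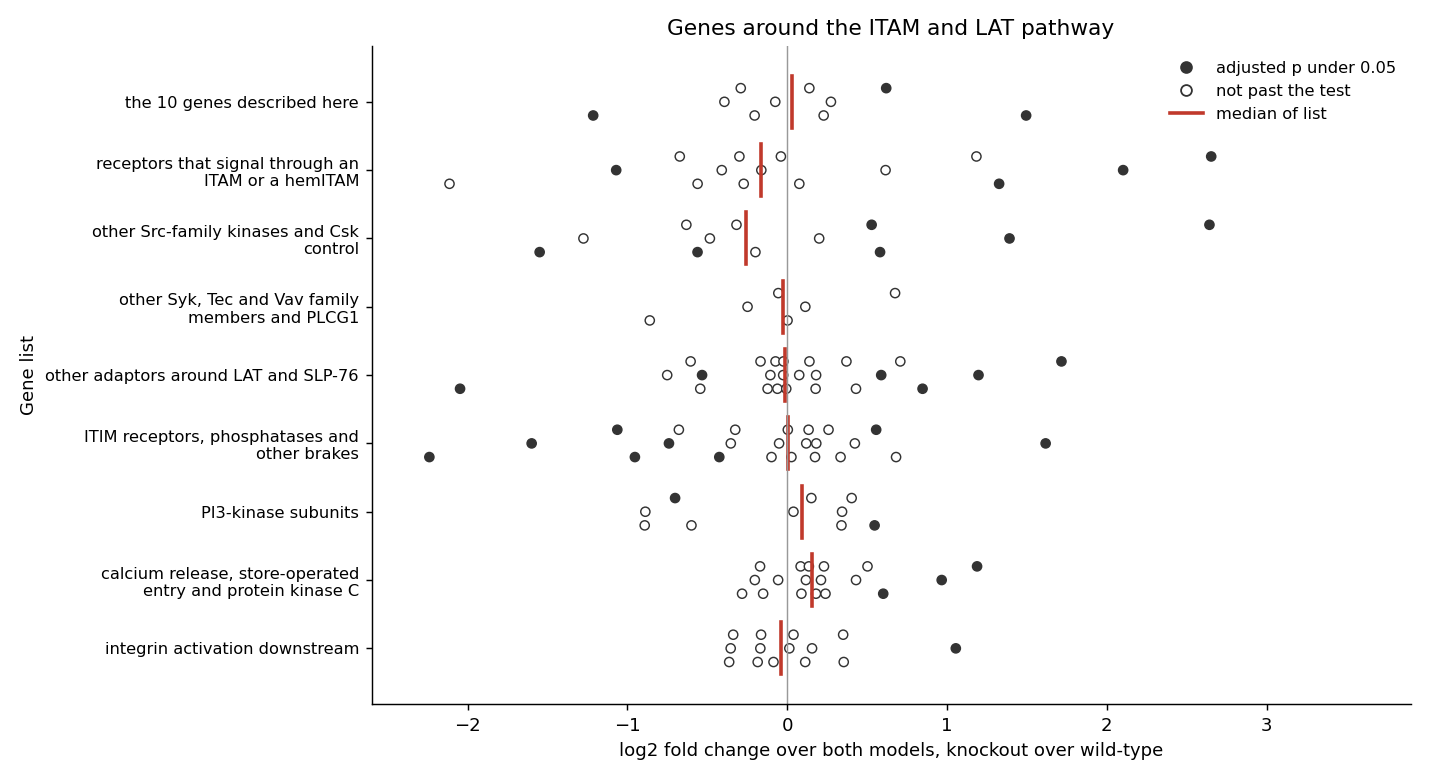
Log2 fold change over both models of each tested gene in the 10 genes described and the 8 lists around them, filled where the edgeR adjusted p is under 0.05, with a red bar at each list's median. Changed genes lie on both sides of 0 in most lists, and the list medians lie between -0.26 and 0.16.

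Markers of other blood cells moved with genotype in part. The 16 neutrophil and granulocyte precursor markers summed to 1145 and 523 CPM in the PF4-Cre and ROSA-Cre knockouts, against 1806 and 1971 CPM in the wild-types, with 5 lower and 0 higher. The other 11 did not pass the test. The median log2 ratio of the 16 was 0.04 within PF4-Cre and -1.77 within ROSA-Cre. The most abundant, Mpo, had 11790 and 4017 counts in knockouts against 41584 and 17505 in wild-types, and so does not stand for the list in PF4-Cre. The 16 erythroid markers summed to 816 and 651 CPM in knockouts against 733 and 608 CPM in wild-types, with 5 higher and 5 lower, and the most abundant, Car2, did not pass. The 10 NK cell markers summed to 36.4 to 84.2 CPM in knockouts against 74.7 to 92.7 CPM in wild-types, nearly all from Nkg7, and 0 of 3 tested were called by edgeR's quasi-likelihood test, 2 had an unadjusted p under 0.05, and DESeq2's Wald test called 1. The 12 T cell markers summed to 1.47 to 2.89 CPM in knockouts against 1.71 to 3.53 CPM in wild-types, with Cd4 the most abundant at 14 to 107 counts and 0 of 2 tested called by the same edgeR test, 1 with an unadjusted p under 0.05, and 0 called by DESeq2's Wald test. Over all 15063 tested genes 5564 had an unadjusted p under 0.05 in the edgeR test. DESeq2's Wald test called 3000 of the 21765 genes it fitted. The part of these blood cells in the Lat, Fyn and Csk results was not tested.

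Promoter windows of 250 bases before the RefSeq start were read for 9 of the 10 genes on GRCm38.p6 (10 windows, Lyn not among them). RefSeq starts need not match the gene spans given above, and the windows of Fyn, Src, Btk and Syk lie inside those spans. The windows of the 3 genes past the test are shown because these moved with genotype. Capitals mark 3 motif classes searched on both strands, AGATAA or TTATCT for GATA factors, GGAAG or CTTCC for ETS factors, and AAATC or GATTT around the core that GFI1 proteins bind. The Lat window lies at chr7:126369569-126369818 on the minus strand, the Fcer1g window at chr1:171234350-171234599 on the minus strand, and the Fyn window at chr10:39369549-39369798 on the plus strand.
Lat: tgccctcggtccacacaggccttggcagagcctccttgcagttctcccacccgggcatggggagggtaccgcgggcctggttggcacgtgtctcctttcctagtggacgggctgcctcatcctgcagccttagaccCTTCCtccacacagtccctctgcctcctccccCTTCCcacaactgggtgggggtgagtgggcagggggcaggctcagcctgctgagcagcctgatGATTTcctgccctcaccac
Fcer1g: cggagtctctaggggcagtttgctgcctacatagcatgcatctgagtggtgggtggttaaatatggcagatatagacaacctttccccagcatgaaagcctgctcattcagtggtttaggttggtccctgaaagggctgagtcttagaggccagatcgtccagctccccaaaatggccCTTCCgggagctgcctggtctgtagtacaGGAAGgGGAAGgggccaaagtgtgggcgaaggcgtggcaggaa
Fyn: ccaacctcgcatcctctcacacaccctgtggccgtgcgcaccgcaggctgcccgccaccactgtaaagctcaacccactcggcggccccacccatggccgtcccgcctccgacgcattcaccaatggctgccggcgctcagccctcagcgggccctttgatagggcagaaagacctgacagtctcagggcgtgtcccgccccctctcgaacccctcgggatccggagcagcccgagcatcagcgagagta
The Lat window held ETS letters 114 and 82 bases before the start and GFI letters 19 bases before it. The Fcer1g window held ETS letters 72, 43 and 37 bases before the start, and the Fyn window held none of the motifs. GATA letters stood in the Lcp2 and Plcg2 windows, and GFI letters in those of Lat and Btk. Among all 32851 promoter windows of that length, 9.99% held the GATA letters, 64.1% the ETS letters and 32.7% the GFI letters, against 2, 6 and 2 of the 10 windows here. A match describes letters in a window and is no evidence of binding.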

How the data were processed

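For each library the authors deposited whole-number read counts by Ensembl identifier, without normalisation. Per the labels' protocols, the library kit was strand-specific TruSeq mRNA. HTSeq, DESeq, SAMtools and TopHat2 2.0.10 are the tools in the submitters' processing notes, with GRCm38 and mm10 as builds. Neither annotation release nor counting strand is given in the sources used here. Reads assigned to no gene made up 32.0% to 36.2% of uniquely aligned reads and ambiguous reads 0.448% to 0.532%, and these 5 category lines stayed out of library sizes and tests.

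Symbols, coordinates and exonic lengths came from GENCODE M21 (40254 of 41214 identifiers matched). The fit used edgeR 4.0.16 in R 4.3.3 with TMM, low genes removed by filterByExpr over genotypes at a minimum count of 10, additive terms for genotype and Cre model, and quasi-likelihood F-tests (legacy = FALSE). Residual degrees of freedom were 1 and prior ones 6.25. The p-values rest on the disagreement between the models, with most of the weight in each gene's variance on the prior drawn from all tested genes. Spread between mice of 1 group was not measured. Each SE was the absolute log2 fold change divided by the root of its F. Ratios within a model used a pseudocount of 1 and carry no test. The code was tested on simulated data. Alternatives were DESeq2 1.42.0 size factors and Wald test, other filters, single-term models, leaving out each library and a GC and length correction, and, chosen after seeing the data, edgeR's older quasi-likelihood method.

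The genes and lists were chosen with earlier results of these data known. Named were all 10 genes, Gfi1b, up to 5 genes past the test per pathway list by p-value and the most abundant marker of each cell type. Other genes were named after their values were seen. Lilrb4a, 1 of 24 listed brakes, was not matched.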

Additional observations from a re-analysis of the deposited data

Results flagged for a closer look

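Lcp2, the gene of SLP-76, was lower in the ROSA-Cre knockout and nearly level in PF4-Cre. Its ratio of knockout over wild-type was 0.866 in ROSA-Cre and 1.04 in PF4-Cre, a difference of -0.26 on the log2 scale. The counting intervals lay on either side of 1, but that of PF4-Cre began at 1.003 and leaves out spread between libraries. The models lay farther apart for Lat (-0.82) and Src (-0.69), whose intervals did not overlap either. The Lcp2 difference was not tested against replicates, since each group holds 1 library.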

How the results depend on the processing

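Fcer1g, Fyn and Lat passed in 6 of the 7 alternatives that kept all 4 libraries, and their directions were the same in all 11. The count of the 10 genes called was 0 with genotype as the only term, and 0 to 2 when 1 library was left out. Of all tested genes 3348 were called for genotype, against 1935 with no filter on low counts, 162 with genotype as the only term and 509 to 883 with 1 library left out. The share higher was 56.9%, against 72.7%, 97.5% and 82.1% to 90.8% in those runs. Between the Cre models 0 of the 10 genes were called, against 2 by DESeq2's Wald test, 1 (Btk) after the GC and length correction, 3 (Syk, Btk and Src) under a filter of 5 CPM on the mean and 0 to 0 with 1 library left out. Over all genes that term gave 2824 calls, against 537 after the correction, 1723 with no filter, 1 as the only term and 0 to 4 with 1 library left out. A limit of 1.5-fold took in 2 genes within PF4-Cre and 4 within ROSA-Cre, and 4-fold took in 0 of each. DESeq2's Wald test called 5 genes in the list of brakes, against 8. Ranking by CPM without length kept 14 of 40 places. Itpr3 turned to -0.034 (edgeR adjusted p = 0.993) without the ROSA-Cre knockout, and ranged from there to 1.87 as each library was left out. The causes were not tested.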

Other observations

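Some genes past the test lay outside the naming rule and were picked after their values were seen. Among the brakes, Sla2, an adaptor that dampens antigen receptor signalling, had 1916 and 114 counts in the PF4-Cre and ROSA-Cre knockouts, against 3006 and 917 in the wild-types (log2 fold change -1.60, SE 0.44, edgeR adjusted p = 0.0415). Dok3 fell by 0.95 (SE 0.27), and the inhibitory IgG receptor Fcgr2b fell by 0.74 (SE 0.21). The Src-family kinase Yes1 had 399 and 136 counts in knockouts against 204 and 31 in wild-types (log2 fold change 1.39, SE 0.36, edgeR adjusted p = 0.0343). Grb2, the adaptor that couples LAT to SOS, had 1444 and 686 counts in knockouts against 1945 and 1161 in wild-types (-0.53, SE 0.15, edgeR adjusted p = 0.0445), while Sos1 and Sos2 did not pass. None of these 5 calls is firm. With no filter on low counts each was lost (edgeR adjusted p from 0.0582 to 0.0983), and without the ROSA-Cre knockout Sla2 was at -0.47 (edgeR adjusted p = 0.791). DESeq2's Wald test called Yes1 alone. Without the ROSA-Cre wild-type, Yes1 was at 0.92, Dok3 at -0.48 and Grb2 at -0.23, none past the test, and without the ROSA-Cre knockout Fcgr2b was at -0.47.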
